A study of Homo sapiens with 5 samples.

Results

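The 9 genes described here belong to the plasma cell program and were followed in Nalm6, a human line established from acute lymphoblastic leukaemia of B-cell precursors. They were chosen by name as JCHAIN together with 8 regulators, secretion factors and surface proteins of plasma cells, and each had exactly 1 probe set annotated with its symbol, so all 9 of 9 were measured among 18417 genes. The arrays held 3 Nalm6 clones that stably expressed a short hairpin RNA (shRNA) against MondoA and 2 clones that expressed a nonsense shRNA, with 1 array for each clone. All 5 clones were grown alike, in medium with 20% heat-inactivated serum and 200 mg/dl glucose, so what every clone shared was the leukaemic line, the medium and an expressed hairpin. Each array was a whole-transcript Affymetrix array read as 1 value per probe set. The question was whether JCHAIN read higher together with the plasma cell regulators or apart from them.

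Plasma cells are the antibody-secreting end stage of the B lineage. The transcription factors IRF4 and PRDM1 (Blimp-1) drive entry into this stage, PRDM1 switches off much of the B-cell program, and XBP1 enlarges the endoplasmic reticulum so that antibody can be folded and exported. The joining chain encoded by JCHAIN links the units of polymeric IgM and IgA. Nalm6 represents a much earlier stage, at which cells normally assemble the pre-B receptor.

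All values are log2 expression after robust multi-array averaging (RMA), and a difference is the mean of the clones labelled MondoA shRNA minus the mean of the control shRNA clones. Errors are SD over n = 3 clones labelled MondoA shRNA and n = 2 control clones. Over all probe sets the Pearson correlation between arrays ran from 0.990 to 0.995. MLXIP, the gene of MondoA, read 6.42, 6.47 and 6.29 in the clones labelled MondoA shRNA and 6.42 in both control clones (difference -0.03, limma adjusted p = 0.959), so no lower target RNA was detected and the groups are called by their labels. For 54% of all genes at least 3 of the arrays held an identical RMA value. Detection above background was not assessed, so a gene with a mean under the median of all genes (4.15) may be at background.

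JCHAIN stood apart from the other 8 genes. It read higher in all 3 clones labelled MondoA shRNA, whereas PRDM1, IRF4, XBP1 and SDC1 differed by 0.15 log2 units or less, POU2AF1 and MZB1 differed by 0.27 and 0.33 and CD38 read lower. None of the 9 passed an adjusted p under 0.05 in limma, and neither did any of the 18417 genes (0%), the lowest adjusted p being 0.110. At an unadjusted p under 0.05 JCHAIN stood among the higher and CD38 among the lower genes, 1 of 9 each, against 1.55% of all genes higher and 2.18% lower (3.73% or 687 genes together). JCHAIN was listed with its high rank already known, so counting it cannot be set against that share. Of the 8 other genes 0 were among the higher and 1 among the lower. The member count of 2 was 0 without control clone 1, and it was 1 without control clone 2, without clone 1 labelled MondoA shRNA or without clone 3 labelled MondoA shRNA. It was 3, MZB1 included, without clone 2 labelled MondoA shRNA. The count over all genes moved too, to 1987 without control clone 1 and 1724 without control clone 2, and it was 707, 1018 and 586 without clones 1, 2 and 3 labelled MondoA shRNA.

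**Figure D1:**
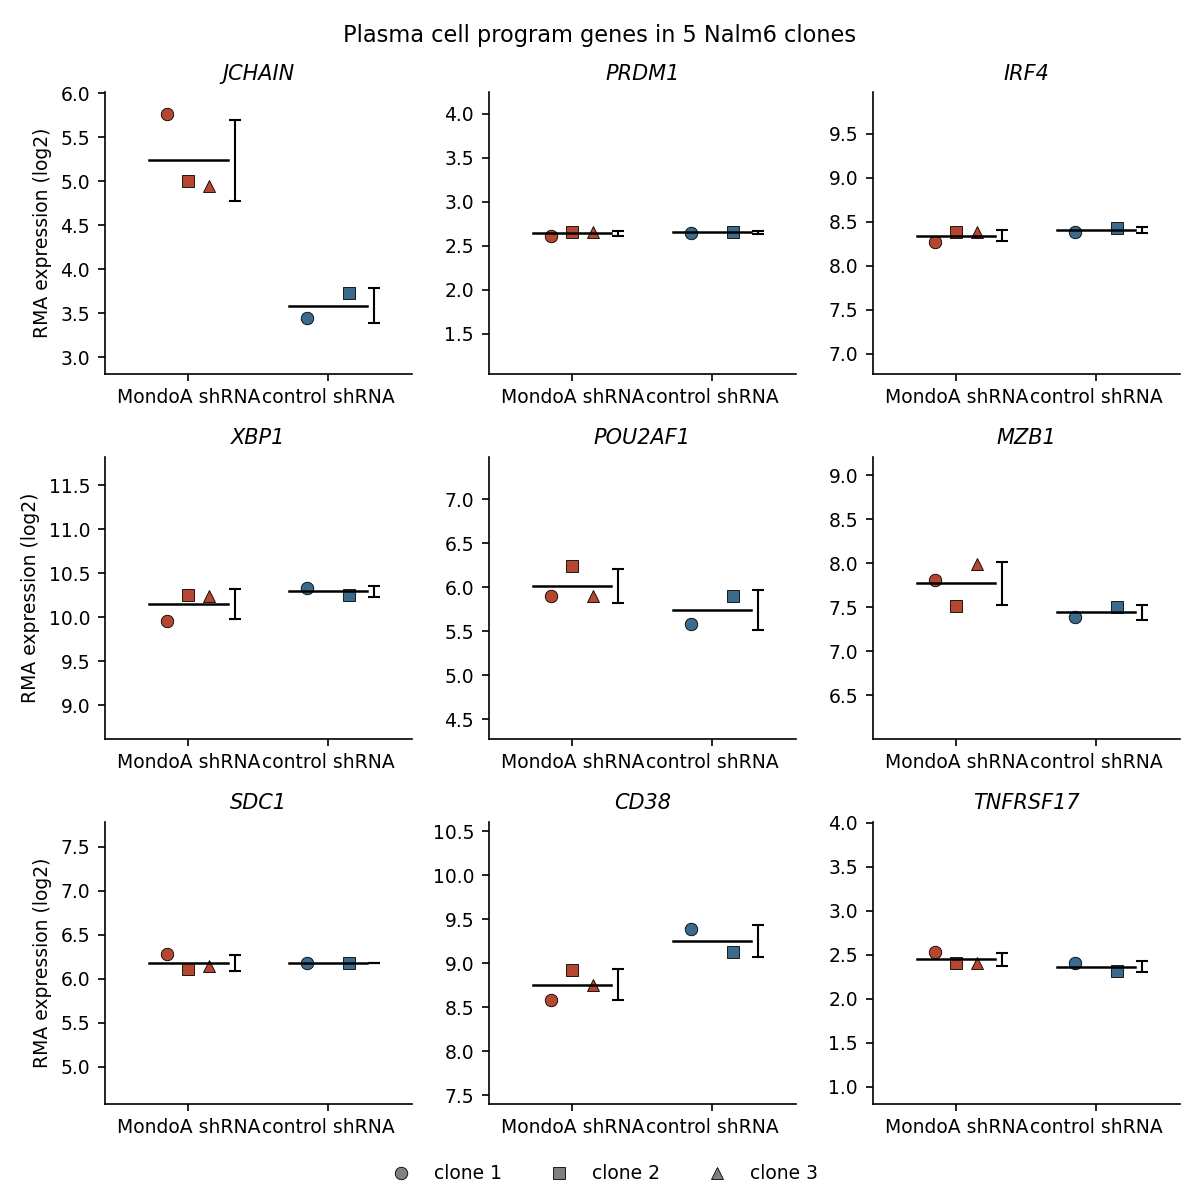
RMA expression (log2) of the 9 genes in each clone, with clones labelled MondoA shRNA at the left and control shRNA clones at the right of each panel. Points are arrays (shape gives the clone number), horizontal lines are group means and error bars are SD (n = 3 and n = 2), every vertical axis spans the same range, and JCHAIN has the widest gap between the groups.

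JCHAIN (probe set 8100827, gene on chromosome 4) read 5.77, 5.00 and 4.95 in clones 1, 2 and 3 labelled MondoA shRNA, against 3.44 and 3.73 in control clones 1 and 2. The groups did not overlap, and clone 1 labelled MondoA shRNA was the highest. The means were 5.24 ± 0.46 in the clones labelled MondoA shRNA and 3.59 ± 0.20 in control clones, a difference of 1.65 ± 0.33 (SE) with a 95% interval from 0.69 to 2.61, which is 3.14-fold on the linear scale. It was the gene at rank 5 of 18417 by difference, and JCHAIN was placed on the list with that high rank already known. Its limma p was 0.00998 unadjusted and 0.833 adjusted. A filter that favours variable genes, keeping the 4301 without tied values, left the JCHAIN difference the same. There 60 genes passed, and JCHAIN had a limma adjusted p of 0.0185, a value that rests on the filter. Without control clone 1 its unadjusted p was 0.0681. The control mean lay below the median gene level, so the fold is a lower bound if that level is background. In bulk RNA, more cells with JCHAIN RNA and more of this RNA per cell cannot be told apart.

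The upstream sequence of JCHAIN is shown with those of CD38 and MZB1, since these 3 genes had non-overlapping groups and 1 window each. Each line gives the 250 bases before the annotated start, from RefSeq on build GRCh38.p14, written 5′ to 3′ on the strand of the gene, at chr4:70666509-70666758 (minus strand), chr4:15778078-15778327 (plus strand) and chr5:139389914-139390163 (minus strand). Capitals mark letters searched on both strands. These were ATGCAAA, the first letters of the octamer ATGCAAAT to which the POU2AF1 partners OCT1 and OCT2 bind, GTGAAA, found in sites of PRDM1 and of interferon regulatory factors, and ACGTG, the core of sites that XBP1 can bind.
JCHAIN: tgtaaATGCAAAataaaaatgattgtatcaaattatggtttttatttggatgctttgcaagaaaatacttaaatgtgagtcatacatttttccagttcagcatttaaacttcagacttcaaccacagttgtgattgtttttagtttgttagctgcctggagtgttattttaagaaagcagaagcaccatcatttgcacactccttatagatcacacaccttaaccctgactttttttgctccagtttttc
CD38: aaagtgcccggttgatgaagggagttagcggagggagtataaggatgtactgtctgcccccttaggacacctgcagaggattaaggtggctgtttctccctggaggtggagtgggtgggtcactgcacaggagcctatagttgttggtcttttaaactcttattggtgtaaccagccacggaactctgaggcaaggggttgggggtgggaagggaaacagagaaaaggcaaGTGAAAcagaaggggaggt
MZB1: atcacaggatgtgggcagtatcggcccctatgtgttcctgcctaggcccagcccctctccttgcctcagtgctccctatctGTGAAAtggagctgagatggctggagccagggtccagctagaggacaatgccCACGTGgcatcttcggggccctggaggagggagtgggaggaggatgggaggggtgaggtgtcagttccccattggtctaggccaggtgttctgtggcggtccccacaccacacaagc

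The JCHAIN window held ATGCAAA once, from 245 to 239 bases before the start. Any match on either strand counted for the shares, and 3.94% of the 35116 windows of that length held ATGCAAA. The full octamer, which contains those letters, was in 1.63% of windows and not in that of JCHAIN. GTGAAA and ACGTG were not found in the JCHAIN window. Among members without the JCHAIN difference, a PRDM1 window also held ATGCAAA, and windows of PRDM1 and XBP1 held ACGTG. The CD38 window held GTGAAA once (10.6% of all windows), from 19 to 14 bases before the start. The MZB1 window held GTGAAA once and the palindrome CACGTG, which is read as ACGTG on both strands. ACGTG was in 18.5% of all windows, and the share with the whole palindrome was not counted. The JCHAIN window was 32.8% G or C, that of CD38 52.4% and that of MZB1 61.2%, against a median of 58% over all windows. Of the 9 genes, 7 had an entry, and POU2AF1 and TNFRSF17 are named only. A match of letters describes the window and shows no binding.

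The 4 transcriptional regulators did not share the JCHAIN difference. Of these, 3 were below 0 and 1 above, with a median difference of -0.04, against a median of 0.00 over all genes tested, though the sign of PRDM1 turned without control clone 2, without clone 1 labelled MondoA shRNA and with array weights. PRDM1 (8121257, chromosome 6), the repressor that closes the B-cell program, read 2.61, 2.66 and 2.66 in clones labelled MondoA shRNA and 2.64 and 2.66 in control clones. Its difference was -0.01 with a 95% interval from -0.07 to 0.06 (limma adjusted p = 0.960), the groups overlapped, and 3 arrays had one and the same value. Both means were below the median gene level, so it is not known whether PRDM1 RNA was detected.

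IRF4 (8116559, chromosome 6), which acts both in pre-B cells and at high dose in plasma cells, read 8.27, 8.38 and 8.38 in clones labelled MondoA shRNA and 8.38 and 8.43 in control clones. The difference was -0.06, with an interval from -0.20 to 0.08 (limma adjusted p = 0.833). XBP1 (8075182, chromosome 22) read 9.95, 10.25 and 10.24 in clones labelled MondoA shRNA and 10.34 and 10.25 in control clones. It differed by -0.15, with an interval from -0.49 to 0.20 (limma adjusted p = 0.833). All 3 clones labelled MondoA shRNA lay below both controls for XBP1, but clone 2 did so by less than 0.01, and clone 1 was the low one. A probe set value sums over transcript forms here, so the spliced, active form of XBP1 was not measured on its own.

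POU2AF1 (7951596, chromosome 11), the B-cell coactivator of octamer-binding factors known as OBF-1, read 5.91, 6.24 and 5.91 in clones labelled MondoA shRNA and 5.58 and 5.91 in control clones. The groups overlapped, since 3 arrays shared the value 5.91. Its difference was 0.27, with an interval from -0.23 to 0.77 (limma adjusted p = 0.833). The higher mean rested on clone 2 labelled MondoA shRNA and on the low control clone 1, not on the clone with the most JCHAIN.

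MZB1 (8114511, chromosome 5), an endoplasmic reticulum protein that helps to assemble and secrete immunoglobulin, read 7.81, 7.51 and 7.99 in clones labelled MondoA shRNA and 7.38 and 7.50 in control clones. The difference was 0.33, with an interval from -0.17 to 0.82 (limma adjusted p = 0.833). Clone 2 labelled MondoA shRNA was within 0.01 of the higher control clone, so the groups were barely separate. Its highest clone was clone 3, whereas the highest JCHAIN value was in clone 1.

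The 3 surface proteins went different ways. CD38 (8094240, chromosome 4), an ectoenzyme found on both B-cell precursors and plasma cells, read 8.58, 8.93 and 8.75 in clones labelled MondoA shRNA, against 9.38 and 9.12 in control clones. The groups did not overlap, and clone 1, highest for JCHAIN, was lowest for CD38. The means were 8.75 ± 0.18 in clones labelled MondoA shRNA and 9.25 ± 0.18 in control clones, a difference of -0.50 ± 0.15 (SE) with an interval from -0.93 to -0.06, or 0.707-fold. Its limma p was 0.0341 unadjusted and 0.833 adjusted, and the unadjusted p ran from 0.0358 to 0.157 with 1 array left out.

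SDC1 (8050557, chromosome 2), the syndecan CD138 that marks plasma cells, read 6.29, 6.11 and 6.14 in clones labelled MondoA shRNA and 6.18 in both control clones. The control value lay inside the range of the other group, and the difference was 0.00, with an interval from -0.19 to 0.19 (limma adjusted p = 1.00). TNFRSF17 (7993267, chromosome 16), which encodes the survival receptor BCMA, read 2.53, 2.41 and 2.41 in clones labelled MondoA shRNA and 2.41 and 2.32 in control clones. Its difference was 0.09, with an interval from -0.09 to 0.26 (limma adjusted p = 0.833). Both TNFRSF17 means were below the median gene level.

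**Figure D2:**
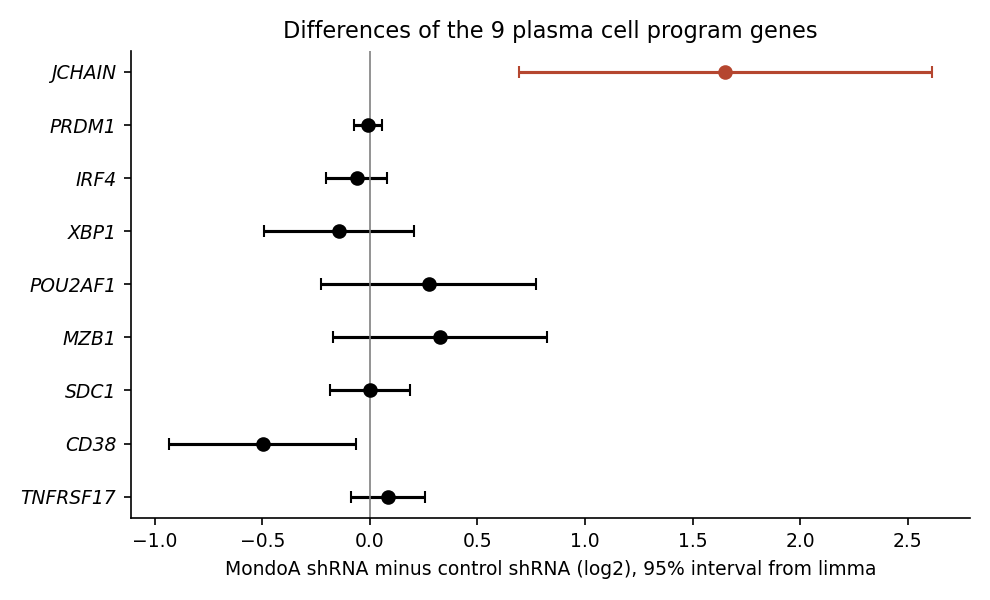
Difference in log2 expression, clones labelled MondoA shRNA minus control shRNA clones, for each of the 9 genes. Points are estimates and bars 95% intervals from limma (3 against 2 arrays), and JCHAIN at 1.65 lies to the right of the upper limits of all 8 others, the highest of which is 0.82 for MZB1.

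By counts, 4 of the 9 genes were above 0 and 5 below, where SDC1 and PRDM1 lay so near 0 that other processing turned their sign. Groups did not overlap for JCHAIN and MZB1 on the higher side, against 4.85% of all genes, and for XBP1 and CD38 on the lower side, against 5.18%. The median difference of the 8 genes other than JCHAIN was 0.00, ranging from -0.50 to 0.33. To set JCHAIN against each of them, its value minus that of the other gene was taken in each array and the groups were compared. This difference of differences was 1.66 for PRDM1, 1.71 for IRF4, 1.80 for XBP1 and 1.38 for POU2AF1. It was 1.33 for MZB1, 1.65 for SDC1, 2.15 for CD38 and 1.57 for TNFRSF17. In each of the 8 pairs all 3 clones labelled MondoA shRNA lay above both controls, and the two-sided exact permutation test over the 10 splits of the arrays gave p = 0.2 (0.2 adjusted over the 8 pairs), the smallest p it can give. With 3 arrays against 2 this test cannot reach 0.05. All 8 pairs reuse the same JCHAIN values, and JCHAIN was listed with its high rank known. The 8 results are therefore not independent and are given as values only. The 95% interval of JCHAIN began at 0.69, above the upper limits of PRDM1, IRF4, XBP1, SDC1, CD38 and TNFRSF17 but below those of POU2AF1 and MZB1. Identical values in several arrays, which PRDM1, IRF4, SDC1, TNFRSF17 and POU2AF1 had, can make an interval too narrow.

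The wider program was read from 4 gene lists. In the list of plasma cell surface and secretion genes, 13 of 16 measured members were above 0 and 3 below, with a median difference of 0.05, while 9046 of all 18417 genes were above 0. That median ran from 0.0107 to 0.0588 with 1 array left out and was -0.28 over the 3 members without tied values. Both means lay below the median gene level for 6 of the 16. Some differences above 0 rested on 1 array while the other 4 arrays were tied. At an unadjusted p under 0.05 stood 0 of the 16, against 3.73% of all genes. Its widest differences were in the chemokine receptor gene CXCR4 at -0.33, the endoplasmic reticulum degradation gene DERL3 at 0.32, the signal peptidase gene SEC11C at -0.28 and TENT5C, a poly(A) polymerase gene, at -0.24. Single clones decided the size of some of these, since DERL3 was 0.14 without clone 3 labelled MondoA shRNA and 0.17 without control clone 2. SEC11C was -0.07 without clone 1 labelled MondoA shRNA, and TENT5C was -0.03 without control clone 1 and -0.44 without control clone 2. In the list of secretory pathway genes linked to XBP1, 12 of 26 measured members were above 0 and 14 below. The median was -0.01, and 0 members stood at an unadjusted p under 0.05, against 3.73% of all genes. Here the widest differences were -0.26 for the translocon gene SEC63, 0.24 for HERPUD1 of protein degradation, -0.14 for the signal peptidase gene SPCS2 and 0.14 for the chaperone cofactor gene SDF2L1.

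Genes of B-cell identity, which plasma cells normally switch off, did not read lower as a list. Of 20 measured members, 12 were above 0 and 8 below, with a median of 0.07. At an unadjusted p under 0.05 stood 4 members with higher and 0 with lower values, against 1.55% of all genes higher and 2.18% lower, and 0 passed the adjusted threshold. These 4 were CD22, an inhibitory co-receptor (difference 1.27), the B-cell receptor signalling chains CD79A (0.91) and CD79B (0.25), and BCL6, a repressor of PRDM1 (0.74). Only among the genes without tied values, a filter that favours variable genes, did CD22 and CD79A pass. Their limma adjusted p there was 0.0207 and 0.0440, while BCL6 (0.145) and CD79B (0.439) did not pass. This list was drawn up with earlier results of these data known, so its share of called genes is not an unbiased one. With 1 array left out the highest unadjusted limma p was 0.0578 for CD22, 0.0611 for CD79A, 0.165 for BCL6 and 0.0444 for CD79B. SPI1, which encodes the lineage factor PU.1, differed by 0.33 without reaching that level. PAX5, the B-lineage factor known to repress JCHAIN, read 9.03, 8.96 and 9.11 in clones labelled MondoA shRNA and 9.03 in both control clones. That is a difference of 0.00 with a 95% interval from -0.16 to 0.16 (limma adjusted p = 1.00), and PAX5 was named after its value was seen.

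**Figure D3:**
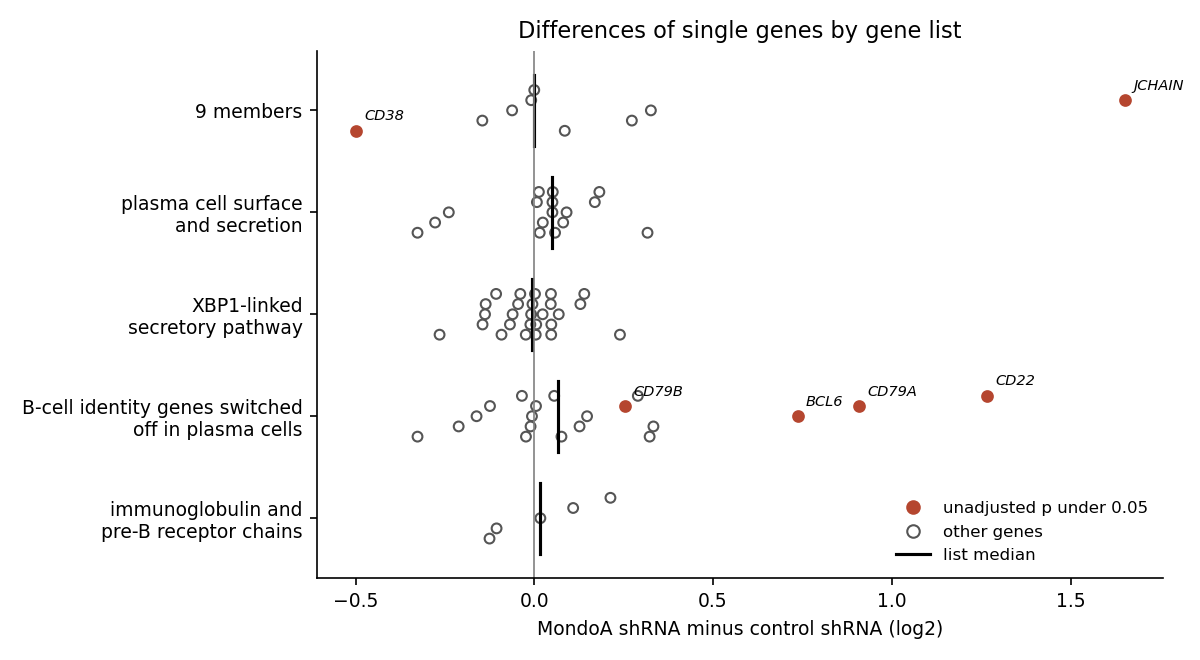
Difference in log2 expression, clones labelled MondoA shRNA minus control shRNA clones, for single genes (points) of the 9 members and of 4 gene lists, with the list median as a vertical bar. Filled points had an unadjusted limma p under 0.05 and are labelled, and in these rows they are JCHAIN and CD38 among the members and CD22, CD79A, BCL6 and CD79B among the B-cell identity genes.

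Immunoglobulin chains were measured in part, and the heavy chains of IgM and IgA, whose units the joining chain links, were not. Of 15 genes in the list of immunoglobulin and pre-B receptor chains, 5 had a probe set of their own, and heavy chain genes were not among them. Their differences ran from -0.13 to 0.21, with a median of 0.02 and 0 at an unadjusted p under 0.05. The surrogate light chain gene IGLL1 differed by 0.21 and VPREB1 by 0.11, VPREB3 by -0.11, and the kappa constant gene IGKC by -0.13. PIGR, a receptor gene and not a chain, differed by 0.02. Over the 13 probe sets annotated to IGKC the differences ran from -0.13 to 0.62, with 0 at an unadjusted p under 0.05, so probe sets of this gene disagreed in direction.

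The labelled cell type was checked against its markers. Of the 8 measured B-precursor markers, 5 were above 0 and 3 below, with a median difference of 0.01. DNTT, the terminal transferase of early B precursors, differed by -1.19 and the recombinase gene RAG1 by -0.45, while CD79A was higher as given above. DNTT did not pass the adjusted limma threshold over all genes. It passed only among the genes without tied values, a filter that favours variable genes, and in no other alternative. All 8 read above the median gene level in both groups. Among markers of other blood cells, 7 of 8 T and natural killer, 6 of 7 myeloid and 2 of 3 erythroid were below it. The exceptions, as means in clones labelled MondoA shRNA and in control clones, were NKG7 (6.35 and 6.62), ELANE (5.53 and 5.49) and KLF1 (4.65 and 4.67). Summed levels were compared as well, and NKG7 weighs most in its sum. The sum over all 18417 genes also differed between arrays, from 1502456 in clone 1 to 1703603 in clone 2 labelled MondoA shRNA. The summed linear level of 8 T and natural killer cell markers was 117 to 147 in clones labelled MondoA shRNA and 136 to 155 in control clones. For 7 myeloid markers it was 94.1 to 107 in clones labelled MondoA shRNA and 96.05 to 99.39 in control clones. For 3 erythroid markers it was 36 to 43.4 in clones labelled MondoA shRNA and 39.39 to 39.85 in control clones. The brightest T and natural killer marker, NKG7, differed by -0.27, and of the myeloid markers ELANE differed by 0.04 and CD14 by 0.21. NKG7 ran from -0.43 to -0.14 and CD14 from 0.05 to 0.37 with 1 array left out. Of the 18 measured markers of other blood cells, 0 stood at an unadjusted p under 0.05, against 3.73% of all genes, so fewer than 1 would be found at that share.

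The genes with the array pattern most like that of JCHAIN were sought among the other 18408 genes, by the Euclidean distance between profiles centred on their mean over the 5 arrays. The nearest was FCRLA, an Fc receptor-like gene of B cells, at a distance of 0.52 log2 units. FCRLA read 9.20, 8.89 and 8.93 in clones labelled MondoA shRNA and 7.58 and 7.60 in control clones. Then came PLD4, an endolysosomal nuclease gene (0.74), the interferon-induced tetherin gene BST2 (0.76), the endolysosomal adaptor gene TASL (0.76) and the adhesion gene ICAM3 (0.80). FCRLA, BST2 and TASL, like JCHAIN, had their highest value in clone 1 labelled MondoA shRNA, and PLD4 and ICAM3 in clone 2. BST2 read 5.71 in clone 1 against 4.70 and 4.78 in clones 2 and 3, with 4.10 and 3.55 in control clones. The members were farther from JCHAIN, from 1.62 for MZB1 to 2.54 for CD38. The distance was not scaled, so any gene with a small difference lies far from JCHAIN, whatever its pattern. Other genes nearer than MZB1 numbered 241, while 672 were nearer than POU2AF1 and 11531 nearer than PRDM1. By difference MZB1 was at rank 361 and POU2AF1 at rank 573 of 18417 genes from the highest. These distances rest on 5 arrays and describe likeness only.

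**Figure D4:**
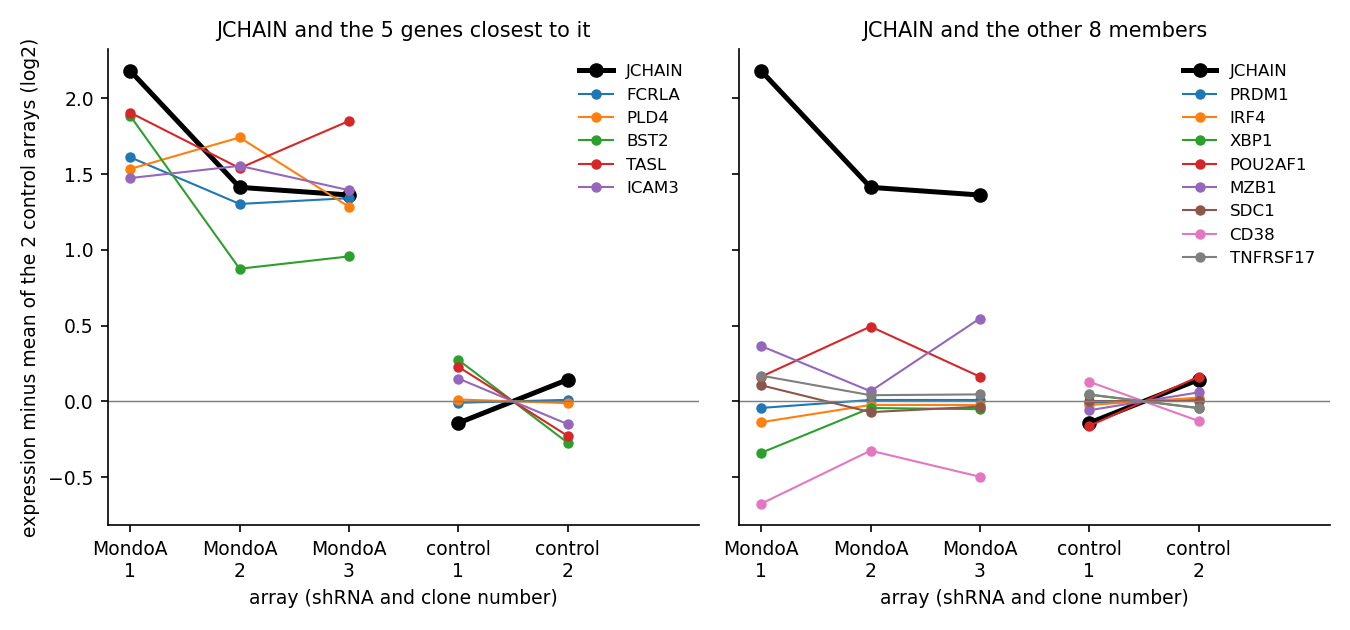
Expression in each array minus the mean of the 2 control arrays (log2), for JCHAIN with the 5 genes closest to it (left) and with the other 8 members (right). Lines join arrays of one group for reading only, and the members on the right stay within 0.68 log2 units of the control mean while JCHAIN is 1.36 to 2.18 above it in clones labelled MondoA shRNA.

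Neighbouring genes that read above the median gene level did not share the JCHAIN difference. On chromosome 4 the next genes with a probe set are AMBN and ENAM, both of tooth enamel proteins, on one side, and UTP3 of ribosome biogenesis and RUFY3, a RUN domain adaptor gene, on the other. Their differences were -0.01 for AMBN, -0.14 for ENAM, -0.08 for UTP3 and -0.20 for RUFY3, and none stood at an unadjusted p under 0.05. Both means of AMBN and of ENAM were below the median gene level, so these genes of one side may be at background.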

How the data were processed

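RNA (200 ng for each clone) was amplified and labelled as biotin-carrying sense target, per the labels' protocols. The deposited values are log2 units, 1 per probe set, made by the authors with RMA in Affymetrix Expression Console 1.1, per the submitters' processing notes. The log base is not stated and was taken as 2, which RMA gives. RMA makes array distributions similar and can hide a shift shared by most genes. The number of arrays limits the precision.

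Of 33297 probe sets, 19460 had exactly 1 symbol in the platform annotation, and symbols were updated by Entrez number from RefSeq (19429 matched). The probe set with the highest mean was kept for each of 18417 genes. Groups were compared with limma 3.58.1 (R 4.3.3, statmod 1.5.0 for array weights), in a two-sided test adjusted by Benjamini-Hochberg over all genes at a threshold of 0.05, a step tested on simulated data.

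The members and lists were chosen with earlier results of these data known. Named genes were the members, the genes beside JCHAIN, the 5 nearest profiles, MLXIP and, in each list, up to 4 with the widest difference plus any at an unadjusted p under 0.05. Among other blood cell markers only NKG7, ELANE, CD14 and KLF1 were named. PIGR was named after its value was seen. Alternatives left out arrays or changed the normalisation, filter, probe set choice, moderation, weights or blocking.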

Additional observations from a re-analysis of the deposited data

How the results depend on the processing

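Across 15 alternatives JCHAIN kept its direction, with differences from 1.39 to 1.80, but many of these could not turn it. Its groups did not overlap, so leaving out an array could not change the sign. Changes of filter, probe set choice or moderation left the difference at 1.65. JCHAIN passed the adjusted threshold in 1 alternative, the 4301 genes without tied values (difference 1.65, adjusted p = 0.0185 in limma). There the count of members that passed was 1. That filter favours variable genes. In the other alternatives the adjusted p of JCHAIN ran up to 0.836. With 1 array left out its difference ran from 1.39 to 1.80 and the count of members that passed was 0 throughout. With array weights 3 members stood at an unadjusted p under 0.05. Where a control array is left out, the single control is taken to have the spread of the clones labelled MondoA shRNA. All 113 values of JCHAIN minus another member were above 0, from 1.00 to 2.42. As all clones labelled MondoA shRNA lay above both controls for these values, leaving out an array could not turn them, so this does not measure stability.

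The count of all genes past the adjusted threshold was 60 over genes free of ties, 3 with no moderation and 2 after either a new quantile normalisation or median centring, and it ran from 0 to 752 when single arrays were left out. The median difference of the other 8 members (0.00) was -0.031 over the 6 with a mean above 4, -0.15 over the 3 free of ties, and it lay between -0.0088 and 0.0091 when single arrays were left out. Values near 0 changed sign. SDC1 was 0.013 with quantile normalisation, PRDM1 0.0022 and AMBN 0.0427 with array weights, and IGKC 0.0541 with probe sets averaged. PAX5 was -0.0086 with quantile normalisation and -0.0047 after centring. With 1 array left out PRDM1 ran from -0.0175 to 0.0088, SDC1 from -0.0531 to 0.0356, MLXIP from -0.0649 to 0.0268, SDF2L1 from -0.0154 to 0.2489, VPREB1 from -0.0642 to 0.2347, ELANE from -0.0129 to 0.0925, AMBN from -0.0517 to 0.0534 and PAX5 from -0.0362 to 0.0434. The cause of these changes was not tested.

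Both groups number their clones from 1, and no label says that a number marks a shared origin. The deviations of same-numbered clones correlated at -0.287 and -0.233. With the replicate number as a block, which sets clone 3 labelled MondoA shRNA aside, JCHAIN was 1.80 and CD38 -0.50. In that fit the limma p of JCHAIN was 0.0797 unadjusted and 0.828 adjusted, and that of CD38 was 0.215 unadjusted. POU2AF1 was 0.33 there, the 1 member at an unadjusted p under 0.05, and its limma p was 0.00435 unadjusted and 0.828 adjusted. The block gave SDC1 0.0173, MLXIP 0.0268, SDF2L1 -0.0154 and PAX5 -0.0362.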
